A study of Saccharomyces cerevisiae with 8 samples.

Results

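The cell wall integrity cascade of the budding yeast Saccharomyces cerevisiae is described here by the transcripts of 10 of its genes, out of 6534 identifiers in the count table. The genes were listed by name for their roles: the GTPase gene RHO1, the kinase genes PKC1, BCK1, MKK1, MKK2, SLT2 and KDX1, the transcription factor gene RLM1, and the phosphatase genes PTP2 and MSG5. They were chosen with earlier results of these data known. All 10 were found in the table and passed the filter on low counts. Polyadenylated RNA was sequenced from exponentially growing cells labelled wild type (strain BMA41) or mub1 deletion (a derivative of BMA41). Both were grown for 5 hours in a defined medium that held Calcofluor white (CFW) at 0 or 20 µg/ml, a dye that binds chitin and disturbs wall assembly. There were 4 groups with 2 libraries each, of 24147195 to 31677985 counts. The study asked where the sensitivity of mub1 cells to wall stress comes from. Mub1 is a partner of the ubiquitin ligase Ubr2.

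In this pathway, sensors in the plasma membrane detect a strained wall and activate the small GTPase Rho1. Rho1 activates the protein kinase C homolog Pkc1, which starts a chain of kinases: Bck1 phosphorylates the paired kinases Mkk1 and Mkk2, and these phosphorylate the MAP kinase Slt2. Slt2 then activates the transcription factor Rlm1, which turns on wall genes and, among them, genes of the cascade itself. The phosphatases Ptp2 and Msg5 remove phosphate from Slt2 and from other MAP kinases. Signalling through the cascade is a matter of phosphorylation, which RNA counts do not measure.

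The labels were checked first. For MUB1 the wild-type libraries held 1068, 1066, 1042 and 1226 counts, and the libraries labelled mub1 held 1, 0, 0 and 1. Other marker genes also parted the genotypes: LEU2, URA3 and MET17 had 0 to 2 counts in each wild-type library and 2621 to 7122 in each mub1 library, and TRP1 had 909 to 989 counts in the former and 0 in the latter. The labels name 1 parent strain for both genotypes, and these genes went against that, so the deletion and other differences between the strains cannot be told apart in any comparison of genotypes below. Transcripts that mark a cells were present in both, with a summed level of 1099 to 1655 CPM (counts scaled to library size by TMM) in wild type and 616 to 710 CPM in mub1, and those that mark alpha cells summed to 46.7 to 72.9 CPM. All 6 a-cell genes were called lower in mub1 in both media, against 20.8% of all genes without CFW and 17.3% with it. Their part in the results was not tested. ADE2 and HIS3 also parted the genotypes. ADE2 had 4106 to 4477 counts in wild type and 1260 to 1458 in mub1, and HIS3 1552 to 1983 and 593 to 1257. Of the 4 groups, wild type with CFW had the replicates farthest apart, with a median absolute log2 difference of 0.16 per gene against 0.08 to 0.10 in the others. The labels do not tell whether replicates came from separate cultures, and the p-values speak only of the spread among these libraries, which may be technical. In such bulk RNA, fewer cells of a kind and less RNA per cell cannot be told apart.

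The promoters of the 10 genes were read from the reference genome (build R64, RefSeq), since Rlm1 is known to bind an A/T-rich site and several cascade genes are known targets. Each sequence below runs 5′ to 3′ along the coding strand, with the match in capitals. SLT2 and KDX1 share a 9-letter word, and 4 other genes hold the full Rlm1 consensus.
SLT2, chrVIII:170532-170611, minus strand: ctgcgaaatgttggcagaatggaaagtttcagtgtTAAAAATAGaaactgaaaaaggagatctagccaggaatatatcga
KDX1, chrXI:151001-151080, minus strand: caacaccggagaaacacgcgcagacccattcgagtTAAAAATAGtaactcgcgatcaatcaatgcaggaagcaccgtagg
RLM1, chrXVI:381414-381493, minus strand: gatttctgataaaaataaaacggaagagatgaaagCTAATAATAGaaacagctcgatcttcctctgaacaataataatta
MKK1, chrXV:772133-772212, plus strand: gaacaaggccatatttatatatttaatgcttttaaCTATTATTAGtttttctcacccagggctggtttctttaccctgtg
BCK1, chrX:247207-247236, plus strand: gtacgaaacaCTAAATATAGtattaaaata
PTP2, chrXV:733873-733902, plus strand: atccccagtgCTATTAATAGtttacaataa

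In the 500 bases before the coding start, searched on both strands, the Rlm1 consensus was found in 4 of the 10 genes and in 1.77% of 5863 promoters. The word TAAAAATAG, picked after the SLT2 and KDX1 promoters had been seen, occurred in these 2 genes and in 1.98% of promoters. Taken as 1 class, the consensus and that word were in 6 of 10 members and in 3.50% of promoters. SLT2 and KDX1 were among the 6 through that pick, so these figures do not measure enrichment. The match began 232 bases before the coding start in SLT2, 358 in KDX1, 308 in RLM1 and 433 in MKK1, but only 38 in BCK1 and 42 in PTP2. With its inner letters free, the consensus (any 4 letters between CTA and TAG) was in the same 4 members and 9.24% of promoters, and TANNNNTAG (which contains both words) was in all 10 and in 64.9%. The SBF-type word CNCGAAA was in SLT2 alone of the members (22.3% of promoters), the stress element word CCCCT in BCK1, PKC1, RHO1 and PTP2 (34.3%), and the pheromone response word TGAAACA in none (11.7%). A match describes the letters and is no evidence of binding.

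**Figure D1:**
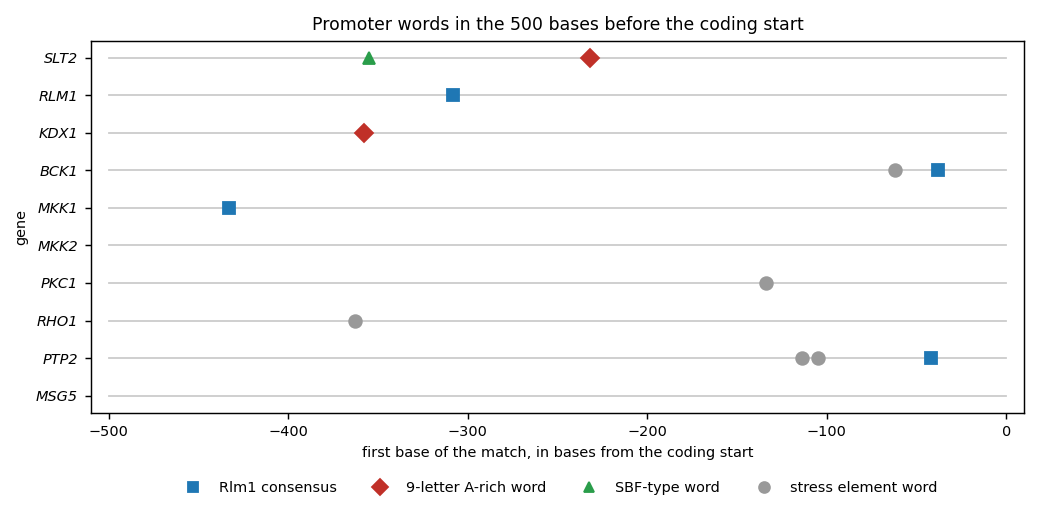
Position of promoter words in the 10 genes, in bases from the coding start (horizontal axis), with 1 line per gene. Squares mark the Rlm1 consensus, diamonds the 9-letter word of SLT2 and KDX1, the triangle the SBF-type word and circles the stress element word; MKK2 and MSG5 hold none of these.

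The levels of the 10 transcripts differed widely in wild type without CFW. Per kilobase of coding sequence, the mean level was 939 CPM for RHO1, which also regulates glucan synthase and the actin cytoskeleton. SLT2 followed at 160 CPM per kilobase, then RLM1 at 61.0, PKC1 at 51.5, MKK2 at 41.1, MKK1 at 32.5, PTP2 at 29.7, MSG5 at 20.8, KDX1 at 17.6 and BCK1 at 11.2, all as means of 2 libraries. Neighbours in this order did not overlap between libraries, and the closest were MKK1 (32.3 and 32.6 CPM per kilobase) and PTP2 (30.9 and 28.4). In wild type with CFW the order changed after SLT2 (379 CPM per kilobase). KDX1 moved from ninth to the third place at 129 CPM per kilobase, with libraries at 105 and 154 that overlapped those of RLM1 (86.2 and 110). PTP2 (55.4) and MKK2 (49.8) came next and overlapped, and MSG5 (42.4) overlapped PTP2, MKK2, PKC1 (46.3) and MKK1 (37.7). BCK1, the kinase that feeds Mkk1 and Mkk2, was again the lowest at 11.2 CPM per kilobase. In both groups labelled mub1 KDX1 was eighth by its mean, at 27.7 CPM per kilobase without CFW and 33.2 with it. Without CFW its libraries (26.4 to 29.1) overlapped those of MKK1 (26.9 to 29.5).

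With CFW in wild type, the transcripts of the lower end of the cascade (the MAP kinase, its paralog, the transcription factor and both phosphatases) rose by 1.61-fold to 7.36-fold. Of the genes above them only MKK2 passed the test, at 1.21-fold. Judged by quasi-likelihood in edgeR, with p-values adjusted after Benjamini and Hochberg over 5954 genes, 6 of the 10 members rose, 0 fell and 4 did not pass. At an unadjusted p under 0.05, and with DESeq2, 7 rose and 0 fell. Over all genes 10.3% rose and 8.7% fell by edgeR, 19% in all, and DESeq2 called 698 higher and 585 lower. When libraries were scaled by their totals the genes called over the table were 716 higher and 321 lower, against 616 and 518. The median log2 change was 0.48 over the members and -0.01 over all tested genes. Both libraries of 1 medium lay beyond both of the other in 9 members and in 58.8% of all genes.

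KDX1 (YKL161C, chromosome XI, 149386 to 150687, minus strand, 1 coding exon) encodes a kinase-like paralog of Slt2 that associates with Rlm1. Its transcript was at 22.8 and 23.0 CPM in wild type without CFW and at 137 and 200 CPM with it. These groups were far apart, although the 2 libraries with CFW differed as well. KDX1 rose by 2.88 ± 0.16 (log2 ± SE, n = 2 libraries per group), a 7.36-fold change and rank 7 by size among 5954 genes (adjusted p = 5.27e-05 by edgeR). SLT2 (YHR030C, chromosome VIII, 168890 to 170344, minus strand, 1 coding exon) was at 248 and 219 CPM without CFW and 493 and 611 CPM with it. The groups did not overlap, and SLT2 rose by 1.24 ± 0.11 (log2 ± SE), or 2.36-fold (adjusted p = 0.000412 by edgeR). Since KDX1 rose more than SLT2, the ratio of the paralogs moved, as taken up below.

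RLM1 (YPL089C, chromosome XVI, 379120 to 381150, minus strand, 1 coding exon), the MADS-box transcription factor that Slt2 activates, was at 130 and 118 CPM without CFW and at 175 and 223 CPM with it. The lowest library with CFW stood above the highest without, and RLM1 rose by 0.69 ± 0.11 (log2 ± SE, 1.61-fold, adjusted p = 0.00395 by edgeR). This call was lost without wild type, no CFW, replicate 2 (adjusted p = 0.0526 by edgeR). PTP2 (YOR208W, chromosome XV, 733925 to 736177, plus strand, 1 coding exon), a tyrosine phosphatase that acts on Hog1 and Slt2, went from 69.7 and 63.97 CPM to 111 and 138 CPM. That was a rise of 0.90 ± 0.10 (log2 ± SE, 1.87-fold, adjusted p = 0.000959 by edgeR). MSG5 (YNL053W, chromosome XIV, 529942 to 531411, plus strand, 1 coding exon) encodes a dual-specificity phosphatase of Slt2 and of the mating kinase Fus3, and went from 30.7 and 30.4 CPM to 51.0 and 73.8 CPM. The groups were clearly apart and MSG5 rose by 1.03 ± 0.16 (log2 ± SE, 2.04-fold, adjusted p = 0.00357 by edgeR). Both phosphatase genes thus rose together with the kinase gene they act on.

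Among the kinases above Slt2 the differences were small. MKK2 (YPL140C, chromosome XVI, 287514 to 289034, minus strand, 1 coding exon) was at 61.7 and 63.4 CPM without CFW and 77.5 and 73.9 CPM with it, a rise of 0.28 ± 0.07 (log2 ± SE, 1.21-fold, adjusted p = 0.0316 by edgeR). It lost the call without any 1 of 4 libraries (both of wild type without CFW and both of mub1 with CFW) and with only the 4 libraries compared in the fit (adjusted p up to 0.169 by edgeR). Its partner MKK1 (YOR231W, chromosome XV, 772601 to 774127, plus strand, 1 coding exon), at 49.3 and 49.8 CPM without CFW and 60.5 and 54.7 CPM with it, did not pass (0.22 ± 0.08, adjusted p = 0.0967 by edgeR). It did pass without wild type, CFW, replicate 2, and with libraries scaled by their totals (adjusted p = 0.0400 and 0.0484 by edgeR). BCK1 (YJL095W, chromosome X, 247255 to 251691, plus strand, 1 coding exon) was at 51.2 and 48.1 CPM without CFW and 47.4 and 51.8 CPM with it. The groups overlapped, and the log2 change of 0.00 ± 0.08 had a 95% interval of -0.19 to 0.18. PKC1 (YBL105C, chromosome II, 14241 to 17696, minus strand, 1 coding exon) was at 182 and 174 CPM without CFW and 157 and 163 CPM with it and did not pass (log2 change -0.15 ± 0.07, 95% interval -0.31 to 0.01). RHO1 (YPR165W, chromosome XVI, 875368 to 875997, plus strand, 1 coding exon), at 602 and 581 CPM without CFW and 677 and 668 CPM with it, did not pass either (0.19 ± 0.08, 95% interval -0.0048 to 0.38, adjusted p = 0.157 by edgeR). DESeq2 called it (adjusted p = 0.0459). These intervals are per gene and not adjusted for the number of genes.

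**Figure D2:**
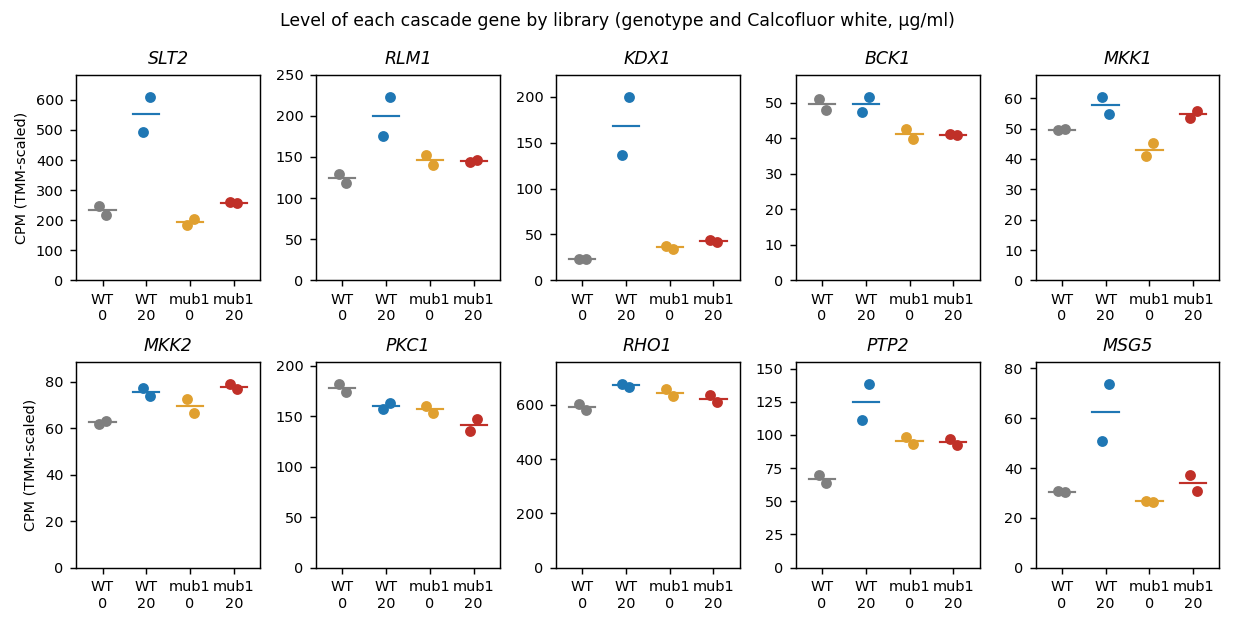
Level of each of the 10 genes in TMM-scaled CPM (vertical axes from 0) in the 4 groups, with 1 point per library and a line at the mean of 2. SLT2, RLM1, KDX1, PTP2 and MSG5 stand highest in both libraries of wild type with CFW, where the points also lie farthest apart, and BCK1 is nearly level between the media of each genotype.

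In wild type with CFW the 2 libraries stood apart in the 5 members that rose most. Between them KDX1 differed by 0.55 on the log2 scale, MSG5 by 0.53, RLM1 by 0.35, PTP2 by 0.31 and SLT2 by 0.31, and replicate 2 was the higher library in all 5. These gaps were larger than those of 91.9%, 91.5%, 80.5%, 76.3% and 75.8% of all tested genes there, in the same order. The other 5 members differed by 0.15 or less in absolute value. In wild type without CFW the gaps were 0.02 for KDX1, -0.01 for MSG5, -0.13 for RLM1, -0.12 for PTP2 and -0.18 for SLT2, larger than those of 11.2%, 10.5%, 69.2%, 66.1% and 80.9% of all tested genes. Set against all genes, the gap was thus wider with CFW in KDX1, MSG5, RLM1 and PTP2, and not in SLT2.

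In the libraries labelled mub1, the members' differences with CFW ran from -0.15 to 0.42 on the log2 scale. Of the 10 members, 2 rose, 0 fell and 8 did not pass, while 13.8% of all genes rose and 14% fell there (27.7% called), so the share of members called was near that of all genes. The median log2 change was 0.08 over the members and 0.00 over all genes. The groups did not overlap in 6 members and in 71.6% of all genes. The unadjusted p and DESeq2 gave the same 2 and 0, and DESeq2 called 909 of all genes higher and 958 lower. SLT2 and MKK1 rose, by 1.34-fold and 1.27-fold.

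SLT2 was at 183 and 203 CPM in mub1 without CFW and at 260 and 256 CPM with it, and the groups did not overlap. The rise of 0.42 ± 0.11 (log2 ± SE, 1.34-fold, adjusted p = 0.0240 by edgeR) lost its call without any 1 of the 4 mub1 libraries (adjusted p 0.0606 to 0.168 by edgeR). MKK1 went from 41.1 and 45.1 CPM to 53.6 and 55.8 CPM, a rise of 0.35 ± 0.08 (log2 ± SE, 1.27-fold, adjusted p = 0.0145 by edgeR). It lost its call without mub1, no CFW, replicate 1 or either mub1 library with CFW (adjusted p 0.0663 to 0.119 by edgeR). KDX1 was at 37.9 and 34.3 CPM without CFW and 44.2 and 42.3 CPM with it, which did not pass (0.26 ± 0.15, adjusted p = 0.229 by edgeR). MSG5, at 26.9 and 26.4 CPM without CFW and 37.0 and 30.6 CPM with it, did not pass either (0.34 ± 0.16, adjusted p = 0.147 by edgeR). Both passed where the spread did not include both libraries of wild type with CFW: without either one, or with only the mub1 libraries in the fit (adjusted p 0.0109 to 0.0221 by edgeR). The members called were then 4, and 40.4% to 42.3% of all genes were called. RLM1 was at 153 and 140 CPM without CFW and 143 and 146 CPM with it (log2 -0.02 ± 0.11, 95% interval -0.26 to 0.23). PTP2 was likewise at 98.3 and 93.1 CPM and then 97.1 and 92.3 CPM (log2 -0.01 ± 0.10, 95% interval -0.25 to 0.22). In both genes the libraries of the media overlapped. MKK2 (0.17 ± 0.07), BCK1 (-0.01 ± 0.08), PKC1 (-0.15 ± 0.07) and RHO1 (-0.05 ± 0.08) did not pass, all log2 ± SE.

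The interaction asks directly whether the response to CFW differed between the libraries labelled mub1 and wild type. Of the 10 members, 3 had a smaller response in mub1 past the threshold, 0 a larger one and 7 did not pass, against 1.61% and 0.89% of all genes (2.5% called in all). At an unadjusted p under 0.05, and with DESeq2, 5 were smaller and 0 larger. Over all genes DESeq2 called 330 smaller and 236 larger, and the number at the unadjusted p is not given here. The median was -0.46 over the members and 0.00 over all genes. KDX1 differed most, by -2.62 ± 0.22 (log2 ± SE, adjusted p = 0.000622 by edgeR), so its response was 6.14-fold smaller, and it passed in all 14 other settings and sets of libraries tried (adjusted p up to 0.0112). PTP2 differed by -0.92 ± 0.15 (adjusted p = 0.0200 by edgeR) and SLT2 by -0.82 ± 0.16 (adjusted p = 0.0337 by edgeR). These 2 calls were lost without any 1 of 6 libraries, those of wild type without CFW and of mub1 in either medium (adjusted p 0.0559 to 0.126 for PTP2 and 0.101 to 0.178 for SLT2, by edgeR). With the replicate block SLT2 also lost its call (adjusted p = 0.0570 by edgeR). RLM1 was just outside, at -0.70 ± 0.16 (adjusted p = 0.0501 by edgeR), and passed when 1 of the wild-type CFW libraries was left out (adjusted p = 3.73e-05 without replicate 1 and 0.0104 without replicate 2, by edgeR) and with DESeq2 (0.00245), with RLE scaling and with no filter on low counts (0.0491 and 0.0455, by edgeR). MSG5 did not pass (-0.69 ± 0.23, adjusted p = 0.121 by edgeR), but did without wild type, CFW, replicate 1 (adjusted p = 0.000303 by edgeR) and with DESeq2 (0.0490). Without replicate 1 of wild type with CFW 5 members and 29.6% of all genes were called, and without replicate 2, 4 members and 6.1%. MKK1 (0.13 ± 0.12), MKK2 (-0.11 ± 0.10), RHO1 (-0.24 ± 0.12), BCK1 (-0.01 ± 0.12) and PKC1 (0.00 ± 0.10) did not pass. The intervals were -0.27 to 0.25 for BCK1 and -0.22 to 0.23 for PKC1 (95%, log2).

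**Figure D3:**
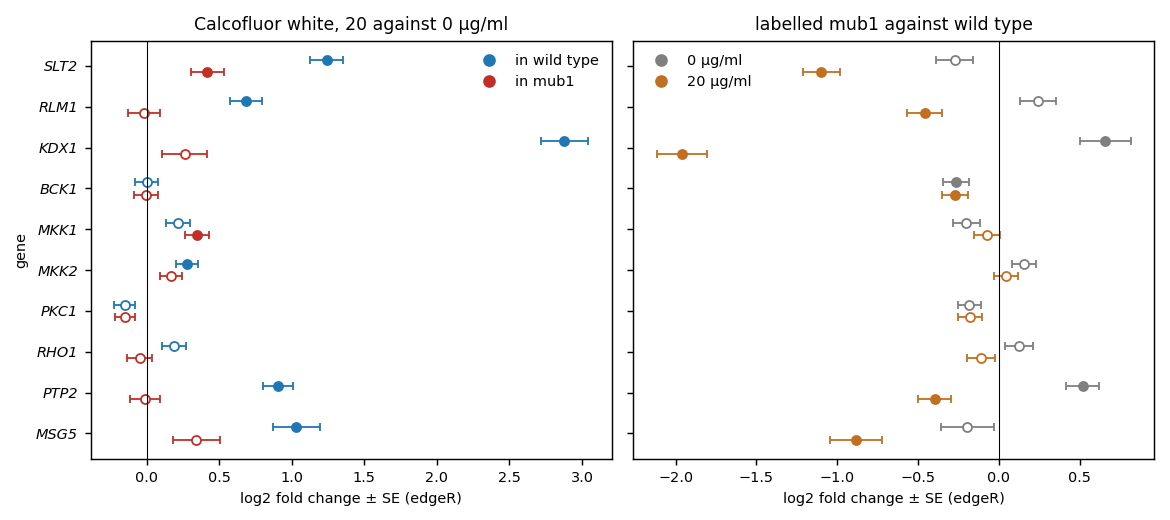
Log2 fold change ± SE (n = 2 libraries per group, edgeR) of each gene for CFW in each genotype (left) and for the genotypes, mub1 over wild type, in each medium (right), with filled points past an adjusted p of 0.05. On the left SLT2, RLM1, KDX1, PTP2 and MSG5 lie between 0.69 and 2.88 in wild type, and all 10 mub1 points lie at 0.42 or below. On the right KDX1 and PTP2 lie on opposite sides of 0 in the 2 media.

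The genotypes were compared in each medium. The 2 comparisons set different libraries against each other, but both tests took their spread from 1 fit of all 8. Without CFW, KDX1 was higher in mub1 by 0.66 ± 0.16 (1.58-fold, adjusted p = 0.00901 by edgeR), PTP2 was higher by 0.52 ± 0.10 (1.43-fold, adjusted p = 0.00356 by edgeR) and BCK1 was lower by the log2 value -0.26 ± 0.08 (adjusted p = 0.0278 by edgeR). The other 7 members did not pass, and the share called, 3 of 10, was below the 42.9% of all genes (22.1% higher and 20.8% lower). Groups did not overlap in all 10 members and in 77.5% of all genes. KDX1 lost its call when either untreated wild-type library, or replicate 1 of untreated mub1, was left out (adjusted p 0.0520 to 0.0624 by edgeR). BCK1 lost it without any 1 of the 4 libraries or without mub1, CFW, replicate 1 (adjusted p 0.0505 to 0.168 by edgeR). In the other direction, SLT2 (-0.27 ± 0.11), RLM1 (0.24 ± 0.11), MKK1 (-0.20 ± 0.08) and PKC1 (-0.18 ± 0.07) passed when 1 wild-type CFW library, whichever of the 2, was left out (adjusted p 0.00592 to 0.0417 by edgeR), which raised the number called to 7 and the share of all genes called to 53.7%. The members' share was thus below that of all genes with all 8 libraries and above it in these fits, and likewise above it with only the 4 libraries compared (6 members and 53.8% of all genes).

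With CFW, the libraries labelled mub1 had less of the lower cascade than wild type. Of the members, 6 were lower, 0 were higher (0 also at an unadjusted p under 0.05 and with DESeq2) and 4 did not pass, where 17.3% of all genes were lower and 18.6% higher (35.9% called). Groups did not overlap in 8 members and in 66.2% of all genes. KDX1 was lower by the log2 value -1.96 ± 0.15, 3.90-fold (adjusted p = 2.70e-05 by edgeR), and SLT2 by -1.10 ± 0.11, 2.14-fold (adjusted p = 0.000129 by edgeR). MSG5 (-0.88 ± 0.16), RLM1 (-0.46 ± 0.11), PTP2 (-0.40 ± 0.10) and BCK1 (-0.27 ± 0.08) were lower as well, at an adjusted p of 0.00265, 0.00986, 0.0142 and 0.0284 by edgeR. RLM1, PTP2 and BCK1 lost their calls without either mub1 library with CFW, BCK1 also without wild type, CFW, replicate 2, and PTP2 and BCK1 with only the 4 libraries compared (adjusted p 0.0559 to 0.131 by edgeR). The number called was 3 without either mub1 library with CFW. KDX1 and PTP2 were called higher in mub1 without CFW and lower with it, and BCK1 was called lower in both media. KDX1, for example, stood at 22.8 to 23.0 CPM in wild type and 34.3 to 37.9 CPM in mub1 without the dye, and at 137 to 200 and 42.3 to 44.2 CPM with it.

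Ratios within a library do not depend on scaling between libraries. Per coding base, KDX1 had 0.102 and 0.118 of the counts of SLT2 in wild type without CFW and 0.310 and 0.366 with it. In mub1 the ratio was 0.231 and 0.189 without CFW and 0.190 and 0.185 with it, so the media were next to each other there and far apart in wild type. PTP2 had 0.181 and 0.189 of the counts of SLT2 per coding base in wild type without CFW and 0.146 in both libraries with it. In mub1 that ratio was 0.347 and 0.296 without CFW and 0.241 and 0.233 with it, above wild type in both media. MKK1 made up 44.2% ± 0.302 of the summed counts of MKK1 and MKK2 in wild type without CFW and 43.2% ± 0.945 with it (SD, n = 2). It made up 38.3% ± 2.998 and 41.2% ± 1.22 in mub1 (SD, n = 2), and the mub1 libraries lay below those of wild type without overlap in each medium. With 2 libraries against 2, an exact test of such a ratio cannot reach 0.05, and none was made. The coding sequences of SLT2 and KDX1 were 65.3% identical over 1291 aligned bases, with no shared run longer than 11 bases, and those of MKK1 and MKK2 were 66.8% identical over 1477 bases, with none longer than 17.

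**Figure D4:**
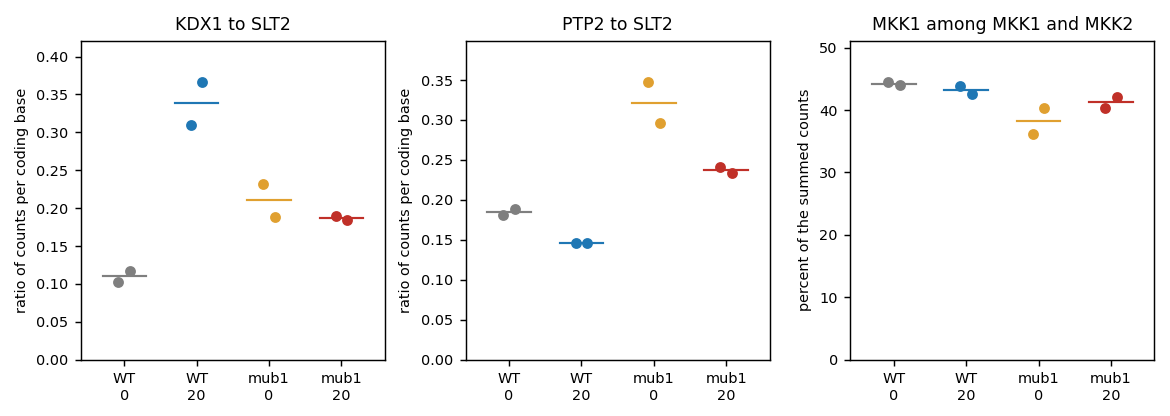
Ratio of counts per coding base of KDX1 to SLT2 and of PTP2 to SLT2, and MKK1 as a percent of the summed counts of MKK1 and MKK2, in each library (points) with the mean of 2 (lines). The KDX1 ratio is 0.310 and 0.366 in wild type with CFW and 0.231 or less in the other libraries.

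The rest of the pathway was looked at through lists of genes. Wall genes taken as known targets of Rlm1, a list chosen with results of these data known, moved with the lower cascade in wild type. Of 18 tested, 18 rose there (median log2 1.18), against 10.3% of all genes. In mub1 7 rose, 1 fell and 10 did not pass (median 0.38), where 13.8% of all genes rose and 14% fell. With 1 library left out, 14 to 18 rose in wild type. In mub1 the number that rose was larger without either CFW library of wild type and smaller without any 1 of the other 6 libraries. The number of all genes called there moved the same way. Of these 18 genes, 9 held the Rlm1 consensus or the 9-letter word, against 3.50% of promoters, and 6 held the consensus, against 1.77%. CRH1, CHS3 and YPS3 held only the 9-letter word, picked after the SLT2 and KDX1 promoters had been seen. With the word and the list so chosen, these figures do not measure enrichment. PIR3, an abundant wall protein, rose by 3.16 ± 0.35 in wild type and did not pass in mub1 (0.95 ± 0.33). NCW2, a wall protein gene, was at 2.11 ± 0.21 and 1.07 ± 0.20, and CRH1, which links chitin to glucan, at 2.02 ± 0.17 and 0.73 ± 0.16, called in both genotypes (log2 ± SE). In the interaction 6 of 18 were lower in mub1 and 0 higher, against 1.61% and 0.89% of all genes. The counts were 18 and 0 at an unadjusted p under 0.05 and with DESeq2. Over all genes DESeq2 called 330 lower and 236 higher, and the number at the unadjusted p is not given here. The 6 were led by CWP1 (-1.83 ± 0.23), CRH1 (-1.29 ± 0.23) and SRL3 (-1.28 ± 0.22). The count of 6 rose without either CFW library of wild type and fell without any 1 of the other 6 libraries. The number of all genes called did the same, and such fits leave 1 library in a group. CWP1, a mannoprotein of the wall, rose by 1.21 ± 0.17 in wild type and fell by 0.63 ± 0.16 in mub1 (log2 ± SE, adjusted p = 0.0021 and 0.0219 by edgeR). The fall in mub1 lost its call without either untreated mub1 library or without mub1, CFW, replicate 2. Fewer of all genes were called in those fits.

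Upstream of RHO1, 14 sensors and regulators of its nucleotide state were tested. With CFW 5 rose and 0 fell in wild type (median log2 0.16), where 10.3% of all genes rose and 8.7% fell. In mub1 0 rose or fell by edgeR, against 13.8% and 14% of all genes. There 1 rose and 2 fell at an unadjusted p under 0.05, and DESeq2 called 1 higher, against 909 of all genes. Without either CFW library of wild type, 2 rose and 3 fell in mub1. In wild type the number that rose was smaller without any 1 untreated wild-type or mub1 library and larger without wild type, CFW, replicate 1. The number of all genes called did the same. Without wild type, CFW, replicate 2, the number that rose was smaller although more of all genes were called. BAG7, a GTPase activating protein of Rho1, rose by 1.04 ± 0.12, the sensor gene MTL1 by 0.91 ± 0.17 and the sensor gene WSC2 by 0.39 ± 0.08 (log2 ± SE). Of 11 accessory genes, 3 rose and 1 fell in wild type. In mub1 2 rose, near the share of all genes that rose there, and 0 fell. Without either CFW library of wild type, the mub1 counts of the sensor and accessory lists and of all genes were larger. SMP1, a paralog of RLM1 better known from the osmotic stress response, rose in both genotypes, by 1.17 ± 0.13 in wild type and 1.504 ± 0.12 in mub1 (log2 ± SE). ASK10, a regulator of a glycerol channel that is linked to Slt2, also rose in both (0.58 ± 0.08 and 0.46 ± 0.08). SDP1, a phosphatase gene for Slt2, fell by 0.48 ± 0.09 in wild type, unlike PTP2 and MSG5, a call lost when replicate 2 of untreated wild type was left out.

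Genes of 2 other MAP kinase chains were counted against the share of all genes that rose with CFW, 10.3% in wild type and 13.8% in mub1. Of 13 genes of the Hog1 chain, which answers to high osmolarity, 7 rose and 0 fell with CFW in wild type (median log2 0.28), and 2 rose in mub1. The first number was smaller without either untreated wild-type library, as was the number of all genes called, and changed less without any other library. The second was smaller without replicate 1 of mub1 in either medium or without mub1, CFW, replicate 2, where fewer of all genes were called as well. SSK22, a kinase parallel to Bck1 in that chain, rose by 0.73 ± 0.12, the sensor gene MSB2 by 0.71 ± 0.14 and the sensor gene HKR1 by 0.51 ± 0.14 (log2 ± SE). Of 15 genes of the mating chain, 2 rose in wild type, FAR1 (1.19 ± 0.17), a cell cycle inhibitor, and KSS1 (0.68 ± 0.11), a MAP kinase, and 0 fell. Some were called lower there without either CFW library of wild type, where more of all genes were called. In mub1 2 rose and 0 fell, and fewer rose without any 1 mub1 library, where fewer of all genes were called. These counts of 2 of 15 were near the share of all genes. The interaction was past the threshold in 0 genes of the sensor, accessory, Hog1 and mating lists by edgeR. At an unadjusted p under 0.05 there were 5, 2, 5 and 2 genes in these lists, and with DESeq2 2, 1, 2 and 0. DESeq2 called 566 of all genes in the interaction. Without wild type, CFW, replicate 1, a smaller response in mub1 was called in 7 sensor genes and 5 Hog1 genes, and without replicate 2 in 2 and 1, where 29.6% and 6.1% of all genes were called.

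The profile over the 8 libraries was compared between genes by the Pearson correlation of log2 (CPM + 1), as a description, since the libraries of a group share their treatment. Among 5226 genes outside the cascade with a mean of at least 10 CPM, those most like SLT2 were HSL1 (r = 0.987), a kinase of the morphogenesis checkpoint, CHS3 (0.985), the main chitin synthase, and PST1 (0.985), a wall protein gene. GPC1 (0.984) followed, and then SPT14 (0.982), a gene of glycolipid anchor synthesis. Most like KDX1 were SED1 (0.989), a wall protein, GFA1 (0.984), the first enzyme of chitin precursor synthesis, EXG1 (0.984), an exoglucanase, BGL2 (0.984), a glucan transferase, and YPL088W (0.983). The last of these is the neighbour of RLM1 and is read away from it. It lies on chromosome XVI from 381965 to 382993 on the plus strand, with 814 bases between the coding sequences and the Rlm1 consensus of the RLM1 promoter, printed above, among them. YPL088W was at 46.6 and 41.1 CPM in wild type without CFW and 130 and 184 CPM with it, and at 68.1 and 70.5 CPM and then 75.2 and 70.4 CPM in mub1. It rose by 1.84 ± 0.15 in wild type, more than RLM1 itself (0.69 ± 0.11), did not pass in mub1 (0.07 ± 0.14), and had an interaction of -1.77 ± 0.20 (log2 ± SE, adjusted p = 0.00603 by edgeR). Within the cascade, SLT2 was most like MSG5 (r = 0.97 over 8 libraries) and KDX1 most like RLM1 (0.95), whereas PKC1 and MKK2 ran opposite (-0.80).

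The Rlm1 words occurred in members that rose with CFW in wild type and in members that did not pass. Whether the words go with the response was not tested. Of the 6 members that rose in wild type, SLT2, RLM1, KDX1 and PTP2 held one of these words within 500 bases. SLT2 and KDX1 did so only through the word TAAAAATAG, which was picked after their promoters had been seen. MKK2 and MSG5 held none, and MKK2 lost its call in some of the other settings and sets of libraries tried. BCK1, with the consensus 38 bases from its coding start, was the member with the smallest change. MKK1, with the consensus at 433 bases, did not pass in wild type (0.22 ± 0.08) and rose in mub1 (0.35 ± 0.08). Its interaction did not pass (0.13 ± 0.12, all log2 ± SE), so a difference between the genotypes was not shown.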

How the data were processed

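The authors deposited whole-number counts per gene for 8 libraries, not scaled. Stranded libraries were made from polyadenylated RNA and sequenced in pairs, per the labels' protocols. Per the submitters' processing notes, FastQC 0.12.1, HISAT2 2.2.1, featureCounts 2.0.3 and build R64 were used. The strand setting and the treatment of overlapping genes are not given in the sources used here. None of the 10 members overlaps another gene of the RefSeq annotation (R64), which matched 5864 of 6534 identifiers. Total counts ran from 24147195 to 31677985, and a floor of 3 counts corresponds to 0.0947 to 0.124 CPM, for counting error only.

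In edgeR 4.0.16 (R 4.3.3), filterByExpr kept 5954 genes, libraries were scaled by TMM (factors 0.979 to 1.02), and all 8 entered 1 robust quasi-likelihood fit with a mean per group and 4 residual degrees of freedom. The 5 comparisons were adjusted by Benjamini-Hochberg over all tested genes, with a threshold of 0.05, two-sided. SE was taken from the log2 change and F. The steps were tested on simulated data. DESeq2 1.42.0, other scalings, no filter, a replicate block, fewer libraries and each library left out were the alternatives.

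The members and lists were chosen with earlier results of these data known. All members are named, and from each list the 3 genes with the largest change past the threshold with CFW in wild type or in the interaction. STE20 was not analysed here. Replicates differed beyond sampling noise in every group (chi-square per gene 11.4 to 75.9).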

Additional observations from a re-analysis of the deposited data

Results flagged for a closer look

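The response to CFW differed between the genotypes, by the interaction test of edgeR's quasi-likelihood fit with Benjamini-Hochberg adjustment, in 3 of the 10 cascade genes. The interaction, as the log2 response in mub1 minus that in wild type, was -2.62 for KDX1, -0.92 for PTP2 and -0.82 for SLT2. KDX1 was past the threshold in all 14 other settings and sets of libraries tried, PTP2 in 8 and SLT2 in 7. The deletion and the marker genes that part the same libraries cannot be told apart. Groups of 2 libraries are too small for a check of single outlying libraries.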

How the results depend on the processing

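With CFW in wild type the number of members called stayed within 1.5 times its value in every alternative (4 to 7 with 1 library left out, against 6). With 1 library left out it ranged from 0 to 4 for CFW in mub1 (against 2), from 1 to 7 for mub1 against wild type without CFW (against 3), from 3 to 7 with CFW (against 6) and from 1 to 5 for the interaction (against 3). With only the 4 libraries compared it was 4 for CFW in mub1 and 6 for the genotypes without CFW, with upper-quartile scaling it was 5 in the latter, and with DESeq2 it was 5 for the interaction; the cause was not tested. Genes called over the whole table ranged, with 1 library left out, from 269 to 1788 for CFW in wild type, 531 to 2541 in mub1, 1440 to 3223 and 1274 to 2502 for the genotypes without and with CFW, and 9 to 1779 for the interaction. With only 4 libraries they were 348 for CFW in wild type and 1419 for the genotypes with CFW, and DESeq2 called 566 in the interaction. A lone library of a group was assumed to vary like the others. The replicate numbers share no stated origin, and same-numbered deviations from the group means correlated at -0.16 to 0.17 over the pairs of groups. The replicate block left the member counts at 6, 2, 3, 6 and 2 and the interaction at 92 genes against 149, and with the numbers of wild type with CFW crossed, an alternative chosen after seeing the data, the interaction had 4 members and 416 genes.

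Signs turned in members near 0, none of them called. For BCK1 with CFW in wild type the log2 value was 0.00599 with upper-quartile scaling, 0.00178 with RLE scaling, 0.0417 with library totals, 0.0150 with only 4 libraries and 0.00164 with DESeq2, and -0.0670 to 0.0666 with 1 library left out. With CFW in mub1, upper-quartile scaling and library totals gave 0.0232 and 0.0102 for RLM1, 0.0318 and 0.0192 for BCK1 and 0.0264 and 0.0141 for PTP2, and leaving out 1 library gave -0.0828 to 0.0449, -0.0615 to 0.0398 and -0.0581 to 0.0255. In the interaction BCK1 was at 0.0258 with upper-quartile scaling and -0.0803 to 0.0579 with 1 library left out. PKC1 was there at -0.00918 with RLE scaling, -0.0118 with library totals and -0.00950 with DESeq2, and -0.0587 to 0.0601 with 1 library left out. The lowest count of a member in any library was 567.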
